A study of Macaca mulatta with 30 samples.

Results

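Aquaporins are membrane channels for water, and some members, the aquaglyceroporins, also pass glycerol. AQP4, the main water channel of the brain, sits in the astrocyte endfeet that cover blood vessels, where it is anchored by the dystrophin complex. In the lung it is found in the basolateral membrane of airway epithelium, and AQP3, an aquaglyceroporin, marks basal cells and other cells of the airway surface and glands. AQP1 is the water channel of endothelium, AQP5 that of alveolar type 1 cells and gland cells, and AQP9 an aquaglyceroporin of hepatocytes and leukocytes. The fetal lung secretes liquid until birth, when epithelial sodium transport turns to absorption, and glucocorticoids are known to raise the genes of that transport.

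A set of aquaporin genes, AQP1, AQP3, AQP4, AQP5 and AQP9, was looked up by symbol in gene-level RNA-seq counts of fetal rhesus macaque lung and hippocampus. Of the 5 genes, 3 had a row under their symbol in each table, which held 30246 rows for lung and 32386 for hippocampus. These were AQP3 (ENSMMUG00000003314), AQP4 (ENSMMUG00000014934) and AQP9 (ENSMMUG00000011225). AQP1 and AQP5 matched no row by symbol and are not analysed here. AQP3 and AQP4 passed the filter on low counts in both tissues and were tested, while AQP9 did not pass it in either tissue.

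The fetuses were wild type by the lung labels, and each dam had been given an intramuscular injection of saline or a betamethasone preparation, to ask whether betamethasone-acetate alone (Beta-Ac, a slow-release ester) acts like the clinical drug, Celestone, an equal mixture of betamethasone-phosphate and betamethasone-acetate. Lung came from 5 groups of 3 fetuses: saline, the clinical drug at 0.25 mg/kg after 4 h and 5 days, and Beta-Ac at 0.125 mg/kg after 6 h and 5 days. The lung labels give gestational days 124 to 130 for all fetuses, which conflicts with the 131 to 136 days that the hippocampus labels give for the 9 fetuses sampled in both tissues. Hippocampus was taken 5 days after injection from 3 groups of 5 fetuses, titled CTL (saline, 130 to 135 gestational days), BAC (132 to 133) and CEL (131 to 136). In the hippocampus labels the treatment and dose fields conflict with the titles: BAC libraries carry a dose of 0.25 and CEL libraries 0.125 mg/kg. These groups are called by their titles, which match the lung labels of the fetuses sampled in both tissues. By those lung labels, CEL fetuses had the clinical drug at 0.25 mg/kg and BAC fetuses Beta-Ac at 0.125 mg/kg. For treated fetuses without a lung library, drug and dose rest on the title alone. Doses, and in lung the early times, differ between the drugs, and all treated groups of a tissue share their saline fetuses.

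Lung libraries held 14073002 to 45033799 reads counted on genes and hippocampus libraries 18280762 to 29301058. Markers matched the labelled tissues. Summed counts per 1000000 counted reads (CPM, with TMM-scaled library sizes) of the alveolar type 2 list ran from 7290 to 17900 in lung and from 205 to 322 in hippocampus, and those of the neuron list from 3770 to 6620 in hippocampus and from 7.33 to 20 in lung. In hippocampus ABCA3 made up most of the alveolar type 2 sum, at 203 to 320 CPM, while SFTPC had at most 0.428 CPM. A single hippocampus library, saline replicate 5, stood apart: its choroid plexus list summed to 1080 CPM and its ependyma list to 369, against 7.81 to 29.2 and 72.8 to 160 in the 14 others. The differences of AQP3, AQP4 and the endfoot and astrocyte genes from saline are therefore also given without it.

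AQP4 rose in the hippocampus of CEL fetuses. AQP4 stood at 452, 443, 793, 607 and 434 CPM in the saline fetuses (546 ± 155, SD, n = 5), at 781, 690, 1200, 442 and 699 CPM in BAC (763 ± 277, n = 5) and at 1280, 896, 1160, 1040 and 833 CPM in CEL (1040 ± 184, n = 5). All 5 CEL libraries lay above the highest saline library, while BAC overlapped both other groups. The AQP4 level was 1.91-fold higher in CEL than in saline, a log2 fold change of 0.93 (SE 0.23, 95% interval 0.44 to 1.43, edgeR quasi-likelihood test, Benjamini-Hochberg adjusted p = 0.0225). Among all 17390 genes tested, 7.86% were called in this comparison, 2.5% higher and 5.35% lower, where a call required 1.5-fold or more with p below 0.05 and adjusted p below 0.1. The exact two-sided permutation test of log2 CPM gave p = 0.00794, the smallest that 5 against 5 can give. That test takes no account of the sequencing run, which was not balanced over the groups. Without saline replicate 5 the AQP4 log2 fold change was 0.86 and was still called (edgeR adjusted p = 0.0362). In these whole-tissue samples, more or fewer cells of a type and more or less RNA per cell cannot be told apart.

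**Figure D1:**
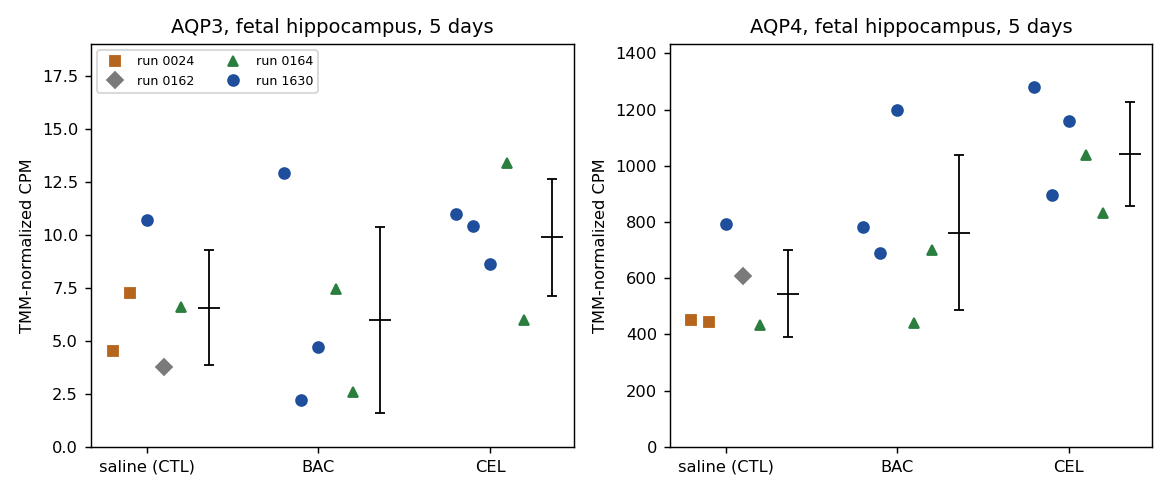
TMM-normalized CPM of AQP3 (left) and AQP4 (right) in each hippocampus library by group, with marker shape and colour for the sequencing run in the labels and a bar for the mean ± SD (n = 5). All 5 CEL libraries lie above 793 CPM of AQP4, the highest saline value, and the AQP3 groups overlap.

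For BAC against saline, the AQP4 difference of 0.48 on the log2 scale (SE 0.23, 95% interval −0.01 to 0.98) was not called (edgeR adjusted p = 0.411), nor was it without saline replicate 5 (0.41, edgeR adjusted p = 0.485). In that comparison 0% of the genes tested were called. No member passed an unadjusted p of 0.05 with edgeR there, and 1 did with DESeq2, which called 0. CEL and BAC did not differ by the test either, at a log2 fold change of 0.45 with an interval of −0.04 to 0.94 (edgeR adjusted p = 0.407), where again 0% of genes were called, 0 members passed an unadjusted p of 0.05 with either tool and DESeq2 called 0. That interval reaches from no difference to nearly 2-fold. With both drugs pooled, AQP4 was called higher than in saline, at 0.71 (SE 0.21, edgeR adjusted p = 0.056), beside 3.42% of genes called and 0.926% called higher. This pooled call was lost without saline replicate 1 (0.65, edgeR adjusted p = 0.139) and without saline replicate 2 (0.64, edgeR adjusted p = 0.135), and was kept without saline replicate 5 (0.64, edgeR adjusted p = 0.0972).

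The sequencing run named in the hippocampus labels was not balanced over the groups. Of the 4 runs, 2 held saline libraries only, with 443 and 452 CPM of AQP4 in one run and 607 in the other. In the run with replicates 1 to 3 of both drugs, the saline library had 793 CPM of AQP4, the 3 BAC libraries 690 to 1200 and the 3 CEL libraries 896 to 1280. In the remaining run the saline library, which is replicate 5, had 434 CPM, the 2 BAC libraries 442 to 699 and the 2 CEL libraries 833 to 1040. Every CEL library thus had more AQP4 than the saline library of its own run. With run as a term in the model, the AQP4 difference between CEL and saline was 0.77 (edgeR adjusted p = 0.0968), still a call. The pooled difference was then 0.53 (edgeR adjusted p = 0.241), no longer a call. The runs with saline libraries only add nothing to these 2 estimates. They rest on 1 saline library in each of the other 2 runs, replicate 5 among them. In the 2 runs that hold all groups, the CEL difference was 0.78 (edgeR adjusted p = 0.239) and was not called. With gestational age as a term it was 0.93 (edgeR adjusted p = 0.0162).

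AQP3 was not called in any hippocampus comparison, and its intervals were wide. Its levels were 4.5, 7.27, 10.7, 3.77 and 6.6 CPM in saline (6.58 ± 2.74, SD, n = 5), 12.9, 2.22, 4.72, 7.46 and 2.61 CPM in BAC (5.99 ± 4.4, n = 5) and 11, 10.4, 8.63, 13.4 and 5.99 CPM in CEL (9.88 ± 2.76, n = 5). The groups overlapped throughout. The AQP3 log2 fold change against saline was 0.59 in CEL (SE 0.42, interval −0.3 to 1.47, edgeR adjusted p = 0.363) and −0.14 in BAC (SE 0.42, interval −1.02 to 0.75, edgeR adjusted p = 0.925). Between CEL and BAC it was 0.72 (interval −0.17 to 1.61, edgeR adjusted p = 0.458). These intervals hold no difference as well as differences beyond 2-fold. Without saline replicate 5 the AQP3 difference from saline was 0.59 in CEL, −0.13 in BAC and 0.23 with the drugs pooled.

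AQP9 was at the edge of detection in hippocampus. It drew 17 reads over the 5 saline libraries, 10 over BAC and 13 over CEL, from 0 to 9 per library. The highest values were 0.361 CPM in saline replicate 3 and 0.36 CPM in CEL replicate 2, and BAC replicate 4 and CEL replicate 5 had no read. A count of 0 allows up to 3 reads, or up to 0.131 reads per 1000000 counted reads in the first and 0.145 in the second, counting error only. No difference in AQP9 between groups was detectable at this depth.

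The genes that place AQP4 in the endfoot, or that work beside it there, did not move as a block. Of 14 such genes, 13 were tested in CEL against saline, and 2 were called higher and 2 lower, beside 2.5% of all genes called higher and 5.35% lower. Their median log2 fold change was 0.20, against −0.02 over all genes tested. GJB6, the astrocyte gap junction protein connexin 30, had 14.7 to 22.5 CPM in saline (median 17.8), 16.8 to 48.5 CPM in BAC (median 27.7) and 34.9 to 48.9 CPM in CEL (median 37.1). CEL lay above every saline library. The GJB6 log2 fold change of CEL against saline was 1.09 (SE 0.22, edgeR adjusted p = 0.014). KCNJ10, the inward rectifier potassium channel Kir4.1 found beside AQP4 in endfeet, had 112 to 161 CPM in saline and 182 to 215 CPM in CEL, with no overlap. Its log2 fold change was 0.64 (SE 0.13, edgeR adjusted p = 0.0142). AGRN, which encodes agrin, a proteoglycan of the basement membrane on which endfeet rest, was lower in CEL, at 200 to 291 CPM against 334 to 469 CPM in saline (−0.68, SE 0.14, edgeR adjusted p = 0.014). These 3 genes kept their calls without saline replicate 5. With run as a term, KCNJ10 (0.42, edgeR adjusted p = 0.131) and AGRN (−0.55, edgeR adjusted p = 0.057) were not called, AGRN for its fold change, and in the 2 runs with all groups neither those 2 nor GJB6 (1.04, edgeR adjusted p = 0.155) was called. With the groups taken from the treatment field, which exchanges the drugs, the group then named CEL holds the libraries titled BAC. Its values are thus the differences of BAC from saline (GJB6 0.68, KCNJ10 0.14, AGRN −0.29), and none of the 3 was called.

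TRPV4, a calcium channel opened by cell swelling and strongly expressed in choroid plexus epithelium, was called lower in CEL (−4.08, SE 1.2, edgeR adjusted p = 0.0383). Of its 1145 saline reads, 1088 came from replicate 5, the library with the choroid plexus transcripts, at 43.5 CPM. The other 4 saline libraries had 0.35 to 0.882 CPM of TRPV4 and the CEL libraries 0.361 to 0.831 CPM. Without that library the TRPV4 log2 fold change was −0.12 and was not called (edgeR adjusted p = 0.856). Without it the endfoot list had 3 genes called higher and 2 lower, with SLC1A2, the astrocyte glutamate transporter GLT-1 (0.80, edgeR adjusted p = 0.0706), and DTNA, which encodes dystrobrevin alpha of the dystrophin complex (−0.64, edgeR adjusted p = 0.0238), joining GJB6, KCNJ10 and AGRN. The share of all genes called without that library is not given here, so these counts have no background beside them.

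DAG1 and DMD, of the AQP4 anchor, had smaller differences that were not called. In CEL against saline the dystroglycan gene DAG1 stood at 0.30 (edgeR adjusted p = 0.0449) and DMD at −0.41 (edgeR adjusted p = 0.0568), both under the fold change that a call needed. In BAC against saline 0 of the 13 genes were called with edgeR, although 5 had an unadjusted p under 0.05, and DESeq2 called 1. With both drugs pooled, GJB6 was called higher (0.88) and TRPV4 lower, the latter again from replicate 5. Between CEL and BAC edgeR called 0 of 13, with 4 at an unadjusted p under 0.05, and DESeq2 called 1.

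**Figure D2:**
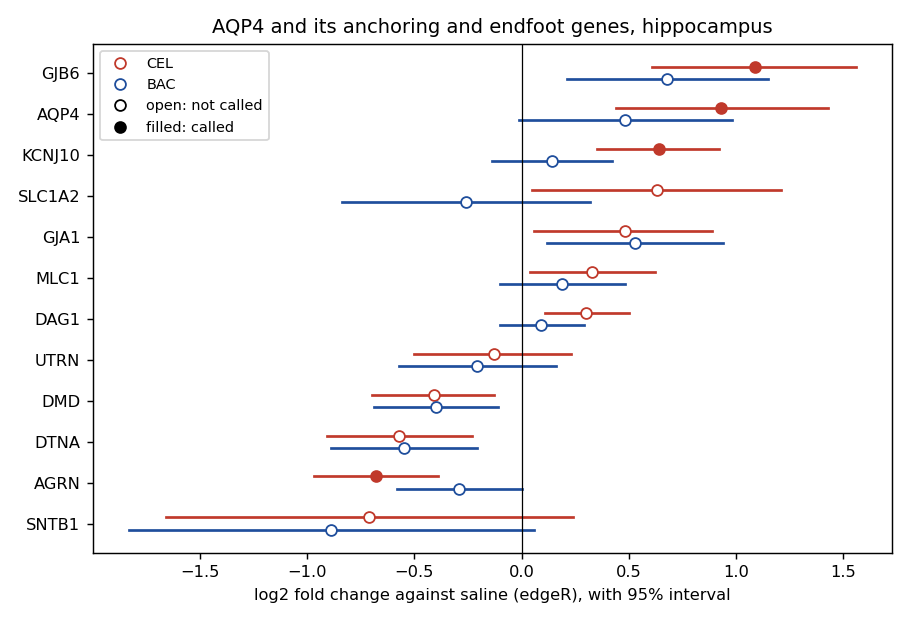
Log2 fold change against saline in hippocampus, with 95% interval, of AQP4 and 11 of its 13 tested anchoring and endfoot genes in CEL (red) and BAC (blue), in order of the CEL value. Filled points are calls: GJB6, AQP4 and KCNJ10 higher and AGRN lower in CEL, none in BAC. TRPV4, with 1088 of its 1145 saline reads in 1 library, and 1 gene that is not reported here are not drawn.

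General astrocyte markers did not pass the test in CEL against saline. The 4 of 6 astrocyte markers with a row summed to 1710 to 2500 CPM in saline, 1780 to 3300 CPM in BAC and 2060 to 3020 CPM in CEL. None of the 4 was called with edgeR or DESeq2 in CEL against saline, with 1 at an unadjusted p under 0.05 by either tool, and their median log2 fold change was −0.08. GFAP stood at 0.14 (edgeR adjusted p = 0.755) and SLC1A3, the glutamate transporter GLAST, at 0.44 (edgeR adjusted p = 0.121), while ALDH1L1, a folate enzyme of astrocytes, stood at −0.30 (edgeR adjusted p = 0.201) and FGFR3, a growth factor receptor, at −0.40 (edgeR adjusted p = 0.168). Without saline replicate 5 the median was −0.09 and again 0 were called. The part of astrocyte number in the AQP4 difference was not tested.

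In lung, no treatment moved AQP4 past the test. It stood at 50.9, 66.2 and 68.6 CPM after saline (61.9 ± 9.61, SD, n = 3), at 63.9, 52.5 and 60.5 CPM 4 h after the clinical drug (59 ± 5.87, n = 3) and at 54.9, 57.4 and 57.1 CPM 6 h after Beta-Ac (56.5 ± 1.4, n = 3). At 5 days it stood at 63.3, 87.6 and 69.1 CPM after the clinical drug (73.3 ± 12.7, n = 3) and at 56.3, 72.1 and 60.2 CPM after Beta-Ac (62.9 ± 8.23, n = 3). Every treated group overlapped the saline group. AQP4 log2 fold changes against saline were −0.07 (interval −0.37 to 0.24) at 4 h of the clinical drug, −0.13 (−0.44 to 0.17) at 6 h of Beta-Ac, 0.25 (−0.06 to 0.55) at 5 days of the clinical drug and 0.02 (−0.28 to 0.33) at 5 days of Beta-Ac. These intervals reach at most 0.55 from zero. Between 4 h and 5 days of the clinical drug AQP4 stood 0.31 lower at 4 h (log2 fold change −0.31, interval −0.62 to −0.01), which was not called (edgeR Storey adjusted p = 0.124).

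**Figure D3:**
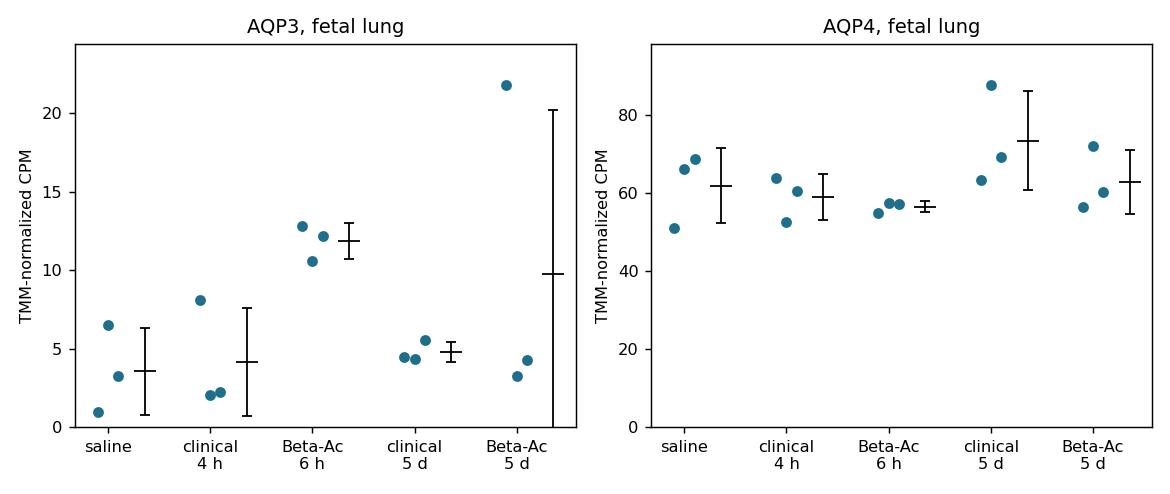
TMM-normalized CPM of AQP3 (left) and AQP4 (right) in each lung library by group, with the mean ± SD (n = 3) beside the points. AQP4 groups overlap between 50.9 and 87.6 CPM, and AQP3 lies above saline in all 3 Beta-Ac 6 h libraries. It also does in 1 clinical drug 4 h library at 8.11 CPM and in 1 Beta-Ac 5-day library at 21.8 CPM.

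AQP3 varied most in lung. After saline it stood at 0.952, 6.5 and 3.26 CPM (3.57 ± 2.79, SD, n = 3), and 6 h after Beta-Ac at 12.8, 10.6 and 12.2 CPM (11.8 ± 1.14, n = 3). Those groups did not overlap, but an exact two-sided permutation test of 3 against 3 can give no p below 0.1. The AQP3 level was 3.34-fold higher at 6 h of Beta-Ac, a log2 fold change of 1.74 (SE 0.73, interval 0.17 to 3.31, unadjusted p = 0.0327 in edgeR), but the adjusted p of 0.306 (edgeR, Storey) was not a call. In that comparison 0.442% of the 17644 genes tested were called, 0.368% higher and 0.0737% lower. At 4 h of the clinical drug AQP3 stood at 8.11, 2.09 and 2.25 CPM (4.15 ± 3.43, n = 3), with 2 libraries inside the saline range and 1 above it, and a log2 fold change of 0.28 (SE 0.73, edgeR adjusted p = 0.611), beside 7.4% of genes called, 3.46% higher and 3.94% lower. This difference became −0.72 without the first clinical drug library and −0.19 without the first saline library.

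Both early lung groups can be set side by side, although dose and time differ. All 3 Beta-Ac 6 h libraries had more AQP3 than all 3 clinical drug 4 h libraries, at −1.46 on the log2 scale for the clinical drug against Beta-Ac (SE 0.72, interval −2.99 to 0.08, edgeR adjusted p = 0.167). It was not called, beside 6.74% of genes called, 2.62% higher and 4.11% lower. Full separation of 3 libraries from 3 can give no exact permutation p below 0.1 here either. Without the first clinical drug library, which had 8.11 CPM, AQP3 was called at −2.45 (edgeR adjusted p = 0.0562). AQP4 stood at 0.06 in the same comparison.

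At 5 days AQP3 stood at 4.47, 4.38 and 5.57 CPM after the clinical drug (4.81 ± 0.659, SD, n = 3) and at 21.8, 3.28 and 4.28 CPM after Beta-Ac (9.77 ± 10.4, n = 3). The clinical drug libraries lay inside the saline range. The Beta-Ac group held the highest AQP3 of all lung libraries, and its log2 fold change of 1.46 (SE 0.73, interval −0.1 to 3.03, edgeR adjusted p = 0.748) fell to 0.09 without that library, replicate 1. For the clinical drug the log2 fold change was 0.44 (edgeR adjusted p = 0.931). At 5 days 0.00567% of genes were called after Beta-Ac, 0% after the clinical drug, 0.0113% with the drugs pooled and 0% between them. Between early and late times of the same drug, AQP3 stood at −0.16 for the clinical drug (10.4% of genes called, 4.47% higher and 5.92% lower) and at 0.28 for Beta-Ac (0.261% called, 0.227% higher and 0.034% lower), and neither was called.

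Neither member was called in any of the 9 lung comparisons with edgeR or with DESeq2 on all libraries. An unadjusted p under 0.05 was found with either tool for 1 member in Beta-Ac 6 h against saline, in edgeR AQP3, and for 1 member between 4 h and 5 days of the clinical drug, in edgeR AQP4, and for 0 members in the other 7 comparisons.

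**Figure D4:**
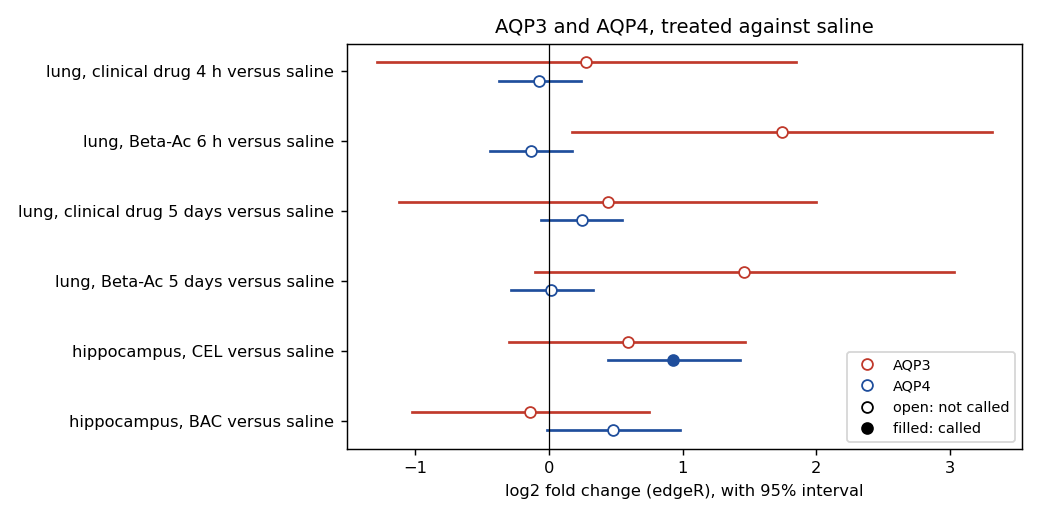
Log2 fold changes of AQP3 (red) and AQP4 (blue) against saline in the 4 treated lung groups and both treated hippocampus groups, with 95% intervals from edgeR. The 1 filled point, a call, is AQP4 in CEL hippocampus at 0.93, and the widest intervals are those of AQP3 in lung.

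Genes of motile cilia moved with AQP3 from library to library. The ependyma list fixed for hippocampus holds genes of motile cilia, which ciliated airway cells share, and 3 of its 5 genes had a row: FOXJ1, the regulator of motile cilia, TEKT1 and DNAH9. Their summed level was 13.6 to 39.6 CPM after saline, 12.2 to 42.6 CPM at 4 h of the clinical drug, 41.4 to 61.3 CPM at 6 h of Beta-Ac, 34.8 to 45.4 CPM at 5 days of the clinical drug and 20.8 to 119 CPM at 5 days of Beta-Ac. The 5 libraries with the least AQP3 (0.952 to 3.28 CPM) were also the 5 with the least of these genes (12.2 to 23.4 CPM), and of the 5 with the most AQP3 (8.11 to 21.8 CPM), 4 were among the 5 with the most. The Beta-Ac 5-day library with 21.8 CPM of AQP3 was the one at 119 CPM. In Beta-Ac 6 h against saline the 3 cilia genes had a median log2 fold change of 1.61, against 0.02 over all genes, and 0 of 3 were called or passed an unadjusted p of 0.05 with edgeR or DESeq2.

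Secretory and gland markers did likewise. SCGB1A1, SCGB3A1, MUC5B, LTF and BPIFA1 summed to 24.8 to 146 CPM after saline, 33.6 to 179 CPM at 4 h of the clinical drug, 159 to 259 CPM at 6 h of Beta-Ac, 98 to 181 CPM at 5 days of the clinical drug and 46.6 to 267 CPM at 5 days of Beta-Ac, where the library at 267 was again the one with the most AQP3. In Beta-Ac 6 h against saline edgeR called 0 of the 4 tested, with 1 at an unadjusted p under 0.05, and DESeq2 called 1. Myeloid markers (5 of 7 with a row) also stood higher, at 93.4 to 220 CPM at 6 h of Beta-Ac against 65.8 to 76.1 CPM after saline, and reached 215 CPM in that same Beta-Ac 5-day library. Of the airway basal markers only NGFR and TP63 had a row, summing to 4.11 to 17.8 CPM over all lung libraries. These basal markers stood at 10.1 to 11.6 CPM at 6 h of Beta-Ac, inside the 7.67 to 14 CPM after saline. They stood at 4.11 to 7.55 CPM at 4 h of the clinical drug, and the 17.8 CPM was in that same Beta-Ac 5-day library. The part of these cells in the AQP3 difference was not tested.

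**Figure D5:**
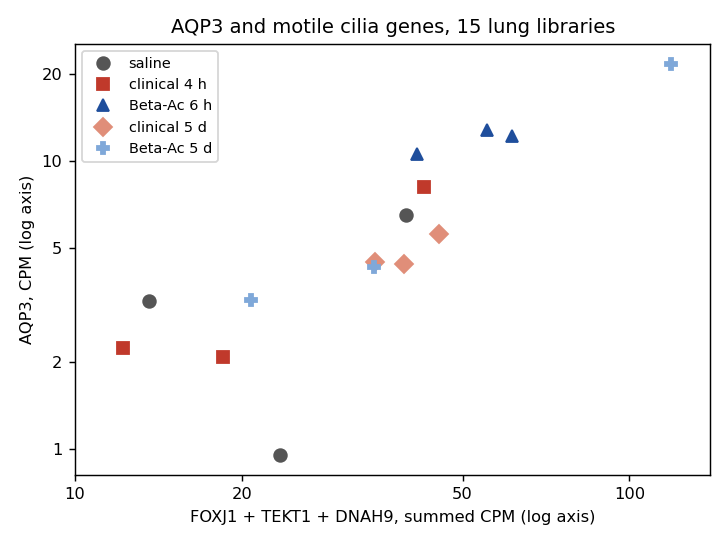
AQP3 level against the summed level of FOXJ1, TEKT1 and DNAH9 in each of the 15 lung libraries, both in TMM-normalized CPM on log axes, with a marker for each group. AQP3 runs from 0.952 to 21.8 CPM and the cilia genes from 12.2 to 119 CPM, and the same Beta-Ac 5-day library is highest in both.

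The genes most like AQP3 over the 15 lung libraries were CCDC187 (Pearson r = 0.96 of log2 CPM), NME9 (r = 0.95) and TSPAN1 (r = 0.94). Those most like AQP4 in lung were PRKD3 (r = 0.80), LRRC57 (r = 0.79) and ZNF638 (r = 0.76). Over the 15 hippocampus libraries they were RASGRP1 (r = 0.87) and FN3KRP (r = 0.84) for AQP3, and ARMCX3 (r = 0.95), IDH3A (r = 0.94) and EPN2 (r = 0.94) for AQP4. These are among the highest of all genes compared, the libraries share their treatment groups, and the values are descriptions.

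In lung AQP9 was also at the edge of detection. It drew 9 reads over the 3 saline libraries, 3 over the clinical drug at 4 h, 6 over Beta-Ac at 6 h, 3 over the clinical drug at 5 days and 8 over Beta-Ac at 5 days, with 0 to 5 reads per library and none in 4 libraries. No difference between groups was detectable at this depth.

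Genes of epithelial ion transport, which move the salt that water follows across the lung epithelium, were called in part at 4 h of the clinical drug, where AQP3 and AQP4 were not. Of the 12 tested, 6 were called higher and 0 lower and 3 had a difference below 0, with a median log2 fold change of 0.91 against 0.02 over all genes, of which 3.46% were called higher. SLC26A9, an epithelial chloride transporter, stood at 36.4 to 53 CPM against 6.96 to 13.9 CPM after saline, and rose by 2.29 (SE 0.33, edgeR adjusted p = 0.000617). All 3 subunits of the epithelial sodium channel rose, SCNN1A by 1.17, SCNN1B by 1.04 and SCNN1G by 1.32. SCNN1A stood at 316 to 397 CPM against 126 to 204 CPM after saline. At 6 h of Beta-Ac edgeR called 0 of the 12, beside 0.442% of all genes. Of the 12, 6 had an unadjusted p under 0.05 with edgeR and DESeq2 called 2, with no share of all genes given here for either count. SLC26A9 then stood at 1.13 (edgeR adjusted p = 0.18) and SCNN1G at 1.05 (edgeR adjusted p = 0.215). In the test between the early groups 4 of the 12 were called higher after the clinical drug, SCNN1A (0.62) and SLC26A9 (1.16) among them, beside 2.62% of all genes. SCNN1A was not called without clinical drug replicate 2 or 3 or Beta-Ac replicate 1 or 3 (0.44 to 0.68). Between 4 h and 5 days of the clinical drug the same 6 genes were called higher at 4 h, beside 4.47% of all genes. CFTR, the chloride channel of cystic fibrosis, was called lower (−1.16, edgeR adjusted p = 0.0828), beside 5.92% of all genes. In hippocampus 0 of the 9 tested were called in CEL against saline with edgeR or DESeq2, with 1 at an unadjusted p under 0.05 by either tool. In lung at 5 days none of the 12 was called against saline for either drug or both pooled with edgeR or DESeq2. With edgeR 0 passed an unadjusted p of 0.05 in each, and with DESeq2 1 after Beta-Ac, 0 after the clinical drug and 1 pooled. Of all genes, edgeR called 0.00567% there after Beta-Ac, 0% after the clinical drug and 0.0113% pooled.

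Of the AQP4 anchoring genes, 9 were tested in lung. At 4 h of the clinical drug edgeR called 1 of the 9, TRPV4 (0.98, edgeR adjusted p = 0.0974), beside 7.4% of all genes, and DESeq2 called 2. The TRPV4 call was lost when any 1 of the 6 libraries compared was left out. The TRPV4 level was 4.89 to 6.73 CPM against 1.81 to 3.87 CPM after saline. GJA1, the gap junction protein connexin 43, was higher (0.74, edgeR adjusted p = 0.0741) and DMD, which encodes dystrophin, lower (−0.65, edgeR adjusted p = 0.0229) at 4 h of the clinical drug than at 6 h of Beta-Ac. In that comparison 2.62% of all genes were called higher and 4.11% lower. None was called at 6 h of Beta-Ac against saline with edgeR or DESeq2, with 2 at an unadjusted p under 0.05 by either tool.

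No other aquaporin passed the test. In lung 6 of 9 others had a row and AQP7, an aquaglyceroporin, and AQP11, an intracellular aquaporin, were tested. In hippocampus 7 of 9 had a row and AQP6, AQP7, AQP8 and AQP11 were tested. No gene of these was called in any comparison with edgeR or DESeq2. Unadjusted p-values under 0.05 in edgeR were those of AQP7 between the early lung groups (−1.05, edgeR adjusted p = 0.125) and of AQP11 between 6 h and 5 days of Beta-Ac (−0.95, edgeR adjusted p = 0.477), and DESeq2 had 1 in each of the same comparisons. AQP11 stood at 1.40 to 5 CPM in lung and at 5.65 to 8.62 CPM in hippocampus. AQP6 stood at 2.05 ± 0.903 CPM in saline, 2.43 ± 0.994 in BAC and 3.13 ± 0.888 in CEL hippocampus (SD, n = 5 each). MIP and AQP10 had at most 2 reads in any library of either tissue.

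In 9 fetuses (3 saline, 3 clinical drug and 3 Beta-Ac at 5 days) both tissues were sequenced. On a common TMM scale AQP4 was lower in lung than in hippocampus in 9 of 9 fetuses, by 3.76 on the log2 scale on average (SD 0.55), or 13.5-fold, with 7.49-fold to 22.6-fold in single fetuses. The exact two-sided sign-flip permutation test gave p = 0.00391, the smallest possible with 9, and 0.00782 after Benjamini-Hochberg adjustment over both genes. AQP3 was lower in lung in 7 of 9 fetuses, by 0.81 on average (SD 0.99, exact permutation p = 0.0469, adjusted 0.0469), and this did not pass with TMM within each tissue (−0.65, exact permutation p = 0.0859). It also did not pass without any 1 of 7 of the 9 fetuses (exact permutation p = 0.0625 to 0.0938). The tables were made separately and share 20572 gene identifiers, so tissue cannot be told apart from how each table was made. Whether the 5-day response differs between tissues was tested as the lung minus hippocampus difference in the 6 treated against the 3 saline fetuses. For AQP4 it was −4.00 in treated and −3.28 in saline fetuses, a difference of −0.72 (exact permutation p = 0.0714, adjusted 0.143, where 0.0119 is the smallest possible). For AQP3 it was 0.99 (exact permutation p = 0.155, adjusted 0.155).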

How the data were processed

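The authors deposited a table of read counts per Ensembl gene for each tissue, as whole numbers. By the labels, lung reads were aligned with Bowtie 1.2.1.1 and counted with featureCounts 1.5.1, and hippocampus libraries were poly(A)-selected, paired-end, and processed with Bowtie2 and featureCounts. For lung, the study's methods name Bowtie 2 and the genome build MMUL1.0. The tables share 20572 gene identifiers and may rest on different annotation releases. Gene symbols were taken from Ensembl names, which covered 52.1% of lung and 54.4% of hippocampus rows. No sequences or coordinates were used.

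Counts were tested with edgeR 4.0.16 in R 4.3.3 (TMM normalization, quasi-likelihood F-test, 1 fit of 15 libraries per tissue). Tested genes reached 7 reads in 3 or more libraries of lung, or in 5 or more of hippocampus. Calls required 1.5-fold or more with p below 0.05 and adjusted p below 0.1 (lung, Storey; hippocampus, Benjamini-Hochberg). The prior count was 0.125 for fold changes and 2 for log2 CPM. DESeq2 1.42.0 and other settings served as alternatives. Shares of all genes called are those of edgeR. List counts by DESeq2 or by unadjusted p have no such share beside them. The fit was checked on simulated counts. Replicates are separate fetuses, and all pairs differed beyond sampling noise. Intervals and floors from counts cover counting error only.

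The members and all gene lists were chosen with earlier results of these data known. The lists were other aquaporins, AQP4 anchoring and endfoot genes, lung fluid transport genes, and markers of alveolar type 1 and type 2 cells, endothelium, airway basal and secretory cells, myeloid and erythroid cells, astrocytes, ependyma, choroid plexus and neurons. The text names each member, and of each list up to 8 called genes by size of change. Other list genes were named after their values were seen. The 3 genes of highest Pearson correlation with a mean of at least 1 CPM are named as most alike. Hippocampus groups follow the library titles. Some genes of the lists and of those most alike are counted but not reported here by name.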

Additional observations from a re-analysis of the deposited data

Results flagged for a closer look

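AQP9 in the CEL hippocampus group was marked because its highest library, replicate 2 with 0.36 CPM from 7 reads, lay far from the other 4 libraries (0 to 0.0983 CPM). Its gap to the nearest library was 0.727 of the group's range. Of 9 groups of 5 examined this was the only one. Chance alone marks about 1 in 20 groups of normally distributed values, a rate that need not hold for counts this low.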

How the results depend on the processing

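AQP4 in CEL against saline was called in 20 of 22 alternatives, of which 10 left out single libraries, with log2 fold changes of 0.48 to 1.11. In the 2 runs with all groups, and with the groups taken from the treatment field, 0 members were called. The treatment field only exchanges the names, so its 0.48 is the main value of the libraries titled BAC and not a refit of those titled CEL. Pooled over both drugs, 0 members were called with run as a term and in those 2 runs, and 0 to 1 as single libraries were left out. With the treatment field, which exchanges BAC and CEL, 1 member was called in BAC against saline, AQP3 stood at −0.14 in CEL against saline, 0.59 in BAC against saline and −0.72 in CEL against BAC, and AQP4 at −0.45 in CEL against BAC. Pooled AQP3 in hippocampus turned to −0.18 with run as a term and −0.15 in the 2 runs. The cause of these changes beyond the settings themselves was not tested.

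Leaving out single libraries gave 0 to 1 members called between the early lung groups, and turned the sign of differences that were not called. AQP3 in lung ranged from −0.72 to 1.02 at 4 h of the clinical drug, −0.01 to 1.17 at its 5 days, −1.44 to 0.35 between the drugs at 5 days, −1.16 to 0.13 between 4 h and 5 days of the clinical drug and −0.14 to 1.64 between 6 h and 5 days of Beta-Ac. AQP4 in lung ranged from −0.21 to 0.01 at 4 h of the clinical drug and −0.1 to 0.1 at 5 days of Beta-Ac. AQP3 in hippocampus ranged from −0.63 to 0.11 in BAC against saline and −0.02 to 0.47 pooled, and pooled TRPV4 from −4.21 to 0.06. The lung minus hippocampus difference of AQP3 was −0.65 with TMM within tissue and without TMM, neither past the test, and −0.98 to −0.62 as single animals were left out, past the test in 2 of these 9 runs. No paired analysis was possible because the treatment groups within a tissue hold different fetuses and share no replicate number in the labels. The comparison of tissues was paired by fetus.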

Other observations

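Among the marker lists, 3 of 5 alveolar type 2 genes tested in lung at 4 h of the clinical drug were called higher by edgeR, beside 3.46% of all genes: SFTPC, the surfactant protein C gene, LAMP3 and ABCA3, a lipid transporter of lamellar bodies. The median log2 fold change of the 5 was 0.93, against 0.02 over all genes. Called lower there were 1 of 5 alveolar type 1 genes tested (RTKN2), 1 of 5 endothelium genes (KDR) and 1 of 2 airway basal genes (NGFR). Of all genes, 3.94% were called lower. Alveolar type 1 markers summed to 1920 to 3320 CPM over the lung libraries, endothelial markers to 2420 to 3520 CPM and erythroid markers to 45.7 to 834 CPM.

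In CEL hippocampus against saline, 3 of 4 choroid plexus genes tested were called lower by edgeR (CLIC6, FOLR1 and OTX2), beside 5.35% of all genes, and 0 by DESeq2. Without saline replicate 5, edgeR called 0 of them lower and 1 higher, with a median log2 fold change of 0.39. The share of all genes called without that library is not given here.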
